A study of Mus musculus with 12 samples.

Results

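The mu-class glutathione transferase genes Gstm1, Gstm2, Gstm4, Gstm5, Gstm6 and Gstm7 and the superoxide dismutase genes Sod1, Sod2 and Sod3 were followed across 12 libraries of retinal cells. They were chosen by name as 2 enzyme families, with no threshold, and are 9 of the 54232 genes in the count table. Gstm6 was known to differ between the viruses at day 7 when the set was drawn up, so the values of the 9 genes in that comparison are given as a description, with no p. The largest contrasts in the set were in Gstm6, which was at or under 3 counts per library in the GFP day 7 group and at 27.2 to 235 CPM (counts per 1000000 counts of a library) in the Olig1 day 7 group, and in Sod3, which had 0 counts in the 3 GFP day 14 libraries. Sod1 was higher in each Olig1 library than in each GFP library at both days. Of all genes tested, 9.40% were so at day 7 and 7.78% at day 14, and the share at both days was not counted. With edgeR's quasi-likelihood test, 0 of the 8 tested genes passed an adjusted p of 0.05 in the comparisons that were tested, while 1 to 4 had an unadjusted p under 0.05 by comparison (9.90% to 11.8% of all genes). DESeq2's Wald test called 1 to 3 of them (3.89% to 5.38% of all genes) and limma voom 0 to 1 (0% to 2.09% of all genes).

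The cells were retinal cells of adult, male, wild-type mice whose optic nerve had been crushed, an injury to the axons of retinal ganglion cells. An adeno-associated virus (AAV) injected in the vitreous carried either GFP or Olig1, which encodes a basic helix-loop-helix factor known from oligodendrocytes. The 4 groups, each of 3 libraries, were AAV-GFP with a crush of 7 days (GFP day 7), AAV-Olig1 with a crush of 7 days (Olig1 day 7), AAV-GFP with a crush of 14 days (GFP day 14) and AAV-Olig1 with a crush of 14 days (Olig1 day 14). The labels give 14 days of virus for every group, and no uninjured group was analysed here. Each library is a pool of 10 to 20 fluorescent cells picked after enrichment with CD90.2 beads, and the promoter of the virus is not given in the sources used here. Nothing in the labels ties the libraries to separate animals, and the p-values therefore reflect only how far these libraries differ, which may be technical.

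Total counts ran from 12534515 to 27602459 per library, and a count of 0 allowed a level of up to 0.109 to 0.239 CPM, for counting error only. Libraries correlated at 0.794 to 0.880 within groups (12 pairs) and at 0.715 to 0.885 between groups (54 pairs). The ganglion cell label was compared with 13 markers of that cell type. Their summed level was 24.3 to 252 CPM in GFP day 7, 1207 to 3087 CPM in Olig1 day 7, 28.7 to 62.9 CPM in GFP day 14 and 98.995 to 2781 CPM in Olig1 day 14. Pou4f2, a defining ganglion cell factor, was at 0 in the 6 GFP libraries, and Pou4f1 was at or under 0.117 CPM there. In the Olig1 libraries Pou4f2 was at 0 to 5.34 CPM and Pou4f1 at 0 to 4.56 CPM. Rbpms, another of the 13 markers, was at 0.0533, 76.0 and 2.52 CPM in GFP day 7. In Olig1 day 7 Rbpms was at 55.1, 568 and 60.3 CPM. At day 14 Rbpms was at 0.0392 to 9.64 CPM with GFP and at 5.21 to 78.6 CPM with Olig1. The marker Slc17a6 was at or under 0.107 CPM in the 6 GFP libraries. Slc17a6 was at 30.8 to 92.6 CPM in Olig1 day 7 and at 0 to 25.7 CPM in Olig1 day 14. Rod markers summed to 12581 to 58431 CPM in GFP day 7 and to 600 to 1328 CPM in Olig1 day 7, and all 15 Müller glia markers were detected in every library. The label is therefore used below only as a name of the sort.

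Glutathione transferases of the mu class join the tripeptide glutathione to reactive, electron-poor compounds, including aldehydes made when lipids are oxidised, so that cells can export them. Superoxide dismutases turn the superoxide radical into hydrogen peroxide, which catalase, glutathione peroxidases and peroxiredoxins then remove. Sod1 encodes the copper and zinc enzyme of the cytosol, Sod2 the manganese enzyme of mitochondria and Sod3 a secreted copper and zinc enzyme of the extracellular space. In the retina, Müller glia are a main store of glutathione.

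The mu-class genes lie in 1 cluster on chromosome 3 and resemble one another closely, which bears on how short reads are assigned. The first 60 coding bases are shown 5′ to 3′ to make that visible (GENCODE M21, GRCm38), with capitals where a gene differs from Gstm1. The stretch of Gstm5 begins at coding base 10, because its coding sequence has extra bases at the start, and Gstm2-ps1 is an annotated pseudogene on chromosome 5. All others begin at coding base 1.
Gstm1: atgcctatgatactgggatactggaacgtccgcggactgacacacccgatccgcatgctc
Gstm2: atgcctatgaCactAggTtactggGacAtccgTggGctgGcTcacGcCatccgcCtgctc
Gstm4: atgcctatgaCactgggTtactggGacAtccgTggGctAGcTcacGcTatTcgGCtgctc
Gstm5: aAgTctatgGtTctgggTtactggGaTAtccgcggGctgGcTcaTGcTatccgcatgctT
Gstm6: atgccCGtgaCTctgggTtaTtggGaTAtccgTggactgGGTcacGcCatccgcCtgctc
Gstm7: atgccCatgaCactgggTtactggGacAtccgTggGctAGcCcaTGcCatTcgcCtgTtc
Gstm3: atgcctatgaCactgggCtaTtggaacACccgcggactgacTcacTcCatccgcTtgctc
Gstm2-ps1: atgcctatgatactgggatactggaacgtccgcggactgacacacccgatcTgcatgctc
In this window Gstm6 and Gstm7 each differed from Gstm1 at 16 bases, Gstm5 at 15, Gstm4 at 14, Gstm2 at 12 and Gstm3, the mu-class gene outside the set, at 9. The pseudogene differed at 1 base. Over the aligned 657 coding bases, Gstm1 matched Gstm2 at 86.0%, Gstm6 at 82.8%, Gstm7 at 82.6%, Gstm4 at 80.2% and Gstm5 at 71.2%, while it matched the pseudogene at 97.9%. The pseudogene, named after Gstm2, matched Gstm2 at 84.8%. The 3 Sod genes are less alike, with 56.8% to 59.1% of aligned coding bases identical.

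Reads longer than the shared stretches can still be placed, so the share of each gene's transcript bases that recur elsewhere was counted. Of the distinct 50-base stretches in its transcripts, Gstm1 shared 18.9% with another annotated gene, Gstm5 9.44%, Gstm6 5.97%, Gstm2 5.65%, Gstm7 0.532% and Gstm4 0%. At 100 bases these shares were 5.86% for Gstm1, 5.58% for Gstm5, 1.10% for Gstm6, 0.357% for Gstm2 and 0% for Gstm7 and Gstm4. For Gstm5 the shared part is an exon overlap of 178 bases with the antisense gene 4933431E20Rik, which had 2638 counts in all libraries beside 122512 for Gstm5. Without a stated strand setting, reads from those 178 bases cannot be told apart. Gstm6 shared most with Gstm3, at 3.49% of its 50-base stretches, and Gstm3 reached at most 2.35 CPM in any library. Sod1 shared 3.42% with the pseudogene Gm8566, which had 260 counts in all, and Sod3 shared 0%. Sod2 shared 21.0%, most of it with AC166110.4 and with Rps6ka2, a kinase gene that had 7423 counts in all libraries beside 30622 for Sod2.

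**Figure D1:**
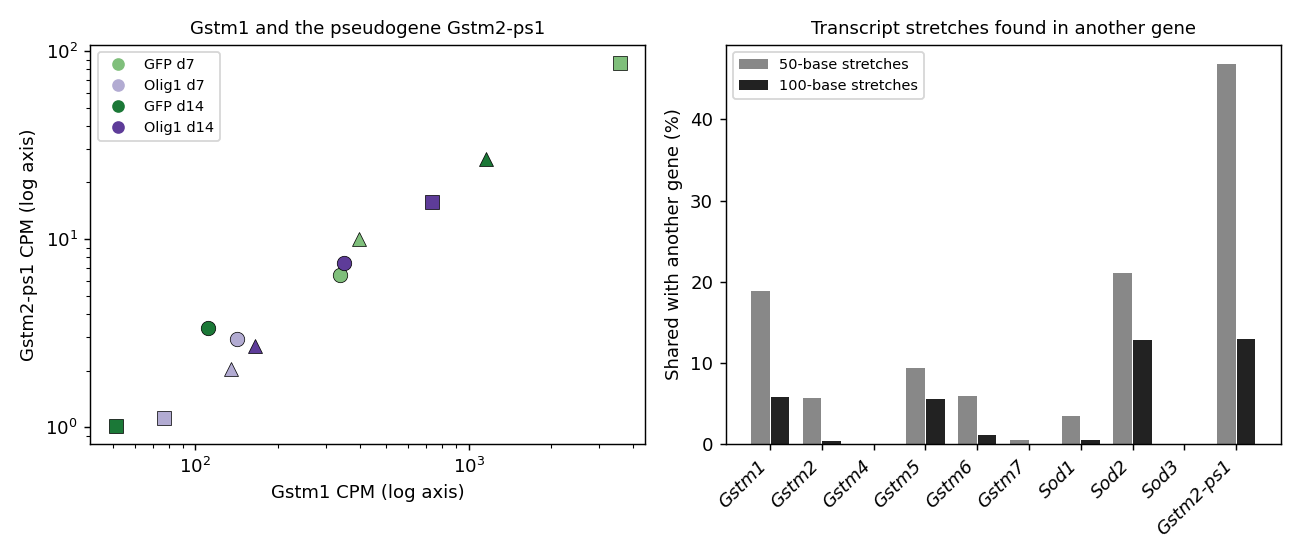
Left, CPM of the pseudogene Gstm2-ps1 against CPM of Gstm1 in 12 libraries on log axes (colours, groups; circle, square and triangle, replicates 1, 2 and 3); right, percent of the distinct 50-base and 100-base transcript stretches of each gene that also occur in another annotated gene. The points on the left run along 1 line from 51.2 to 3575 CPM of Gstm1, and the highest bars on the right among the 9 genes are those of Sod2 and Gstm1.

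Gstm1 (ENSMUSG00000058135, chr3:108012255-108017973, minus strand) was detected in every library, at 51.2 to 3575 CPM. Its level in GFP day 7 was 339, 3575 and 396 CPM in replicates 1, 2 and 3. In Olig1 day 7 it was 142, 76.8 and 135 CPM. All 3 GFP libraries were above all 3 Olig1 libraries at day 7, and the GFP mean of 1437 CPM ± 1852 (SD, n = 3) rested on replicate 2. The fitted log2 difference of Olig1 minus GFP at day 7 was -3.61 ± 1.33 (SE), and it was -1.39 without that library. In bulk pools such as these, fewer cells of a type and less RNA per cell cannot be told apart. Glul, the glutamine synthetase that marks Müller glia, was at 3770, 5081 and 4666 CPM in GFP day 7 and at 245, 936 and 543 CPM in Olig1 day 7. The summed Müller glia list overlapped between these groups, at 54134 to 116064 CPM and 44136 to 125200 CPM, and its part in the difference was not tested.

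At day 14 the direction for Gstm1 was not settled. The level was 111, 51.2 and 1158 CPM in GFP day 14 and 349, 737 and 165 CPM in Olig1 day 14. The groups overlapped because of GFP day 14 replicate 3, in which B lineage markers, led by Igkc, summed to 132547 CPM. The log2 difference of Olig1 minus GFP was -0.38 ± 1.20, adjusted p = 1, and it was 2.54 without that library. Between day 7 and day 14 of Olig1 the level was higher at day 14 in every library, by 1.98 ± 1.24 on the log2 scale, and this did not pass the test (adjusted p = 0.587). Within GFP the log2 difference of day 14 minus day 7 was -1.25 ± 1.22 (adjusted p = 0.892), and 0.97 without GFP day 7 replicate 2.

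The pseudogene Gstm2-ps1 (chr5:116632908-116633564) followed Gstm1 more closely than any other of 14977 genes, with a Pearson r of 0.989 on log2 CPM over the 12 libraries, given as a description. Its level was 1.01 to 86.5 CPM, and the counts of Gstm1 were 33.1 to 68.8 times its counts, with a median of 47.5. Of the 50-base stretches of the pseudogene, 35.4% also occur in Gstm1, and whether its counts are reads of Gstm1 was not tested. The next genes in likeness to Gstm1 were Optc, which encodes the vitreous proteoglycan opticin (r = 0.937), and the gene model Gm8834 (r = 0.931). Of Gstm1's 50-base stretches, 5.86% also occur in Gm8834, and whether its counts are reads of Gstm1 was not tested.

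Gstm2 (ENSMUSG00000040562, chr3:107981702-107986453, minus strand) was near its floor in some libraries and high in others. Its level was 0, 137 and 4.04 CPM in GFP day 7 and 0.217, 0.160 and 0.203 CPM in Olig1 day 7, where the 3 libraries held 9 counts together. GFP day 7 replicate 1, at 0, lay below the Olig1 libraries, so the groups overlapped. At day 14 the level was 0, 7.54 and 54.5 CPM with GFP and 34.0, 56.7 and 1.92 CPM with Olig1, a log2 difference of 0.27 ± 2.12 (adjusted p = 1). All 3 Olig1 day 14 libraries were above all 3 Olig1 day 7 libraries. That log2 difference of 7.40 ± 2.85 had an adjusted p of 0.377 with edgeR and of 0.0212 with DESeq2's Wald test. Ryr3, a calcium release channel of internal stores, was most like Gstm2 over the 12 libraries (r = 0.953), followed by Gm6665 (0.931) and Lipa, the lysosomal acid lipase (0.922), and Gm6665 shares 2.32% of Gstm2's 50-base stretches.

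Gstm5 (ENSMUSG00000004032, chr3:107895821-107898686, plus strand) was present at 98.9 CPM or more in every library. Its level was 408, 355 and 185 CPM in GFP day 7, 254, 98.9 and 224 CPM in Olig1 day 7, 1169, 338 and 355 CPM in GFP day 14 and 990, 606 and 693 CPM in Olig1 day 14. With Olig1 every day 14 library lay above every day 7 library, while the Olig1 and GFP groups overlapped at both days. The Olig1 mean went from 192 CPM ± 82.1 at day 7 to 763 CPM ± 202 at day 14 (SD, n = 3 each). The log2 difference between the days was 2.18 ± 0.52 with Olig1 (adjusted p = 0.305) and 1.20 ± 0.51 with GFP (adjusted p = 0.446). DESeq2's Wald test (adjusted p = 0.0339), limma voom (0.0197) and edgeR without the filter (0.0354) called the difference with Olig1. With DESeq2 size factors in edgeR the log2 difference of Gstm5 with Olig1 was 2.00 ± 0.54 (adjusted p = 0.349), and the median of all genes moved by -0.18. Whether either scaling suits these pools was not tested. The difference of Olig1 minus GFP was -0.63 ± 0.50 at day 7 and 0.35 ± 0.50 at day 14 (adjusted p = 0.996 at day 14). Tsn, an RNA and DNA binding protein also called translin, was most like Gstm5 (r = 0.915), followed by Ap3s1 (0.912), a subunit of the AP-3 sorting complex, and Tmem68 (0.899).

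Gstm6 (ENSMUSG00000068762, chr3:107938847-107943749, minus strand) is the gene that brought the transferases to attention. In GFP day 7 the 3 libraries held 1, 1 and 3 counts, which is 0.0533, 0.0547 and 0.176 CPM. In Olig1 day 7 the level was 51.9, 235 and 27.2 CPM. Each Olig1 library was far above each GFP library, and the pooled counts of 4303 against 5 gave a ratio of 1019. The ratio is a description, because Gstm6 was chosen through this comparison. It pools the 3 libraries of each group and does not cover the spread between them. Without Olig1 day 7 replicate 2 the ratio was 442. The fitted log2 difference was 10.63 ± 1.85, and 8.52 without that library. In this comparison edgeR called 0.227% of all 14985 genes tested, in either direction, and 1 member, Gstm6, which is how the gene came to be chosen. Groups did not overlap at day 7, with Olig1 higher, for Gstm6 and Sod1 (9.40% of all genes) and, with Olig1 lower, for Gstm1 and Gstm7 (9.01% of all genes). Nothing is read from these counts.

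At day 14 the gene was at 8.60 to 20.0 CPM in 5 of the 6 libraries, between the day 7 groups, and at the level of GFP day 7 in Olig1 day 14 replicate 1. It was at 18.4, 9.02 and 8.60 CPM in GFP day 14 and at 0.145, 20.0 and 12.6 CPM in Olig1 day 14. The group means of 12.003 CPM ± 5.53 and 10.9 CPM ± 10.0 (SD, n = 3 each) lay within the spread, with a log2 difference of -0.11 ± 1.21 (adjusted p = 1). That sign turned to 0.18 without GFP day 14 replicate 1 and to 0.47 without Olig1 day 14 replicate 1. With GFP every day 14 library was above every day 7 library, and with Olig1 every day 14 library was below every day 7 library. The log2 difference of day 14 minus day 7 was 7.19 ± 1.63 with GFP (adjusted p = 0.371) and -3.55 ± 1.34 with Olig1 (adjusted p = 0.373). Without Olig1 day 7 replicate 2 the latter was -1.59 ± 1.70 (adjusted p = 0.989). The difference between the viruses in that change was -10.74 ± 2.10 (adjusted p = 0.341). These 3 comparisons use the day 7 libraries through which Gstm6 was chosen, so they are not independent of the choice. DESeq2's Wald test called all 3 of them, with adjusted p of 5.99e-05, 0.0467 and 1.76e-06 in that order.

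Galnt16, a transferase that starts O-linked glycan chains, was most like Gstm6 over the 12 libraries (r = 0.912), followed by the noncoding RNA Peg13 (0.905) and Atp6v1e1, a subunit of the vesicular proton pump (0.904). The ganglion cell sum was 1207, 3087 and 1737 CPM in the 3 Olig1 day 7 libraries and at most 252 CPM in GFP day 7. Olig1 day 14 replicate 2, with a ganglion cell sum of 2781 CPM, held Gstm6 at 20.0 CPM, while GFP day 14 replicate 1 held it at 18.4 CPM with a sum of 46.4 CPM. The part of cell composition in the level of Gstm6 was not tested.

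Gstm7 (ENSMUSG00000004035, chr3:107926334-107931817, minus strand) was at 27.0, 65.0 and 22.1 CPM in GFP day 7 and at 0.652, 1.20 and 17.4 CPM in Olig1 day 7. The GFP libraries were all above the Olig1 libraries, with a fitted log2 difference of -2.66 ± 2.10 that was -4.93 without Olig1 day 7 replicate 3. The day 14 levels were 0, 8.91 and 34.3 CPM in the GFP group, and 29.0, 0.448 and 0.160 CPM in the Olig1 group. These overlapped fully, with a log2 difference of -0.85 ± 1.99 (adjusted p = 1) that turned to 1.23 without GFP day 14 replicate 3. Frrs1, a ferric reductase, was most like Gstm7 (r = 0.973), before Dbt (0.962), a subunit of the branched-chain ketoacid dehydrogenase, and Plin3 (0.953), a lipid droplet coat protein. Gstm4 (ENSMUSG00000027890, chr3:108040408-108044894, minus strand) had 0 counts in 7 libraries and at most 1.76 CPM, did not pass the filter on low counts, and was the only member not tested.

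**Figure D2:**
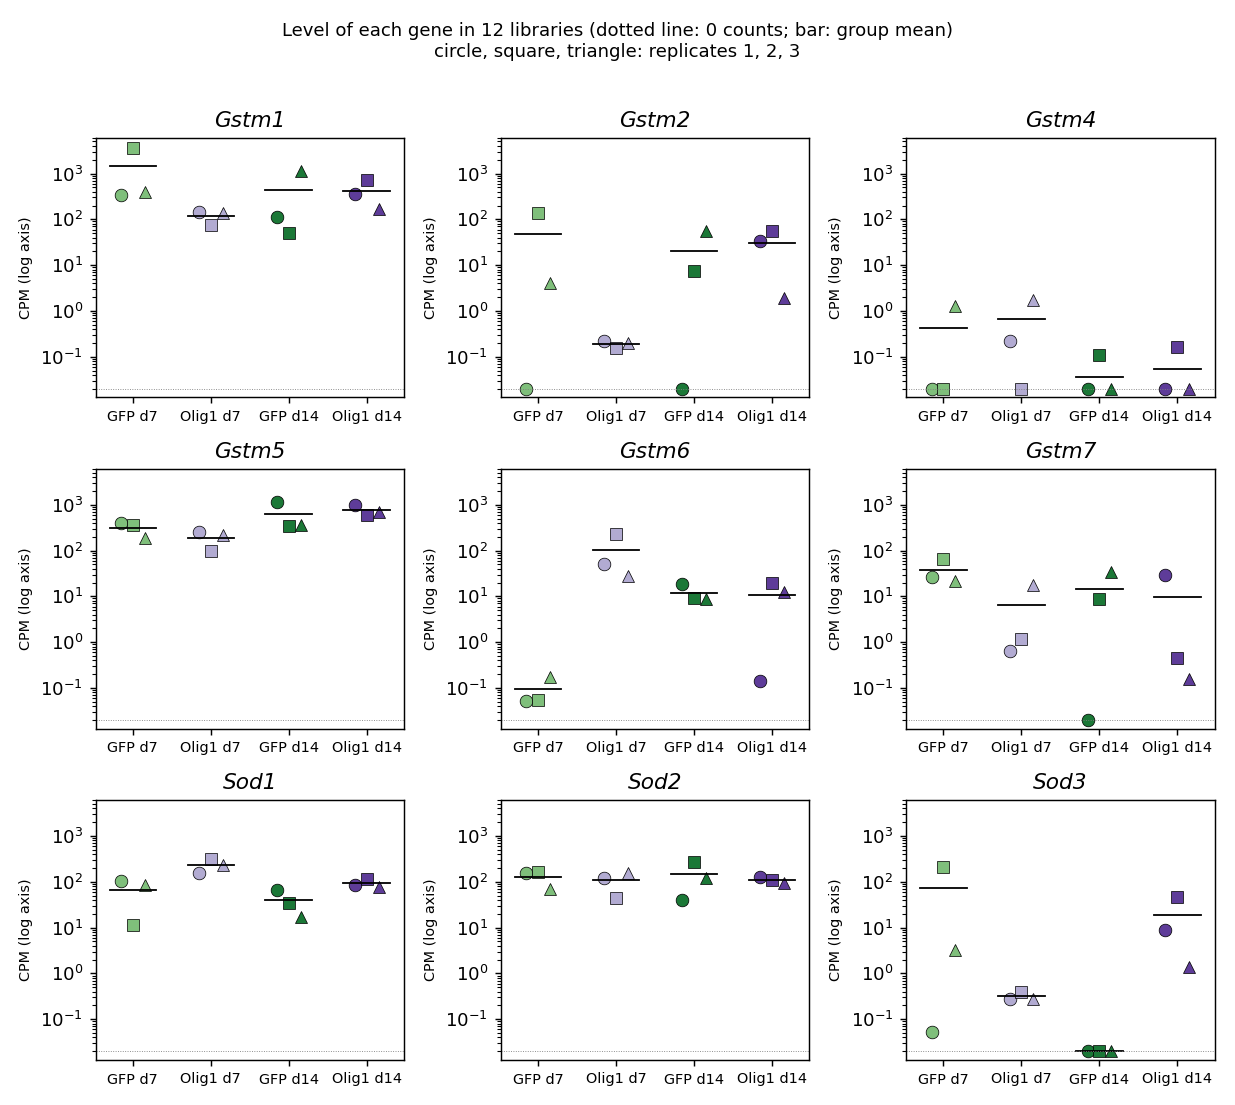
CPM on a log axis for each of the 9 genes, by group (GFP and Olig1 at day 7 and day 14), with 1 symbol per library (circle, square and triangle for replicates 1, 2 and 3), a bar at the group mean, and libraries with 0 counts on the dotted line. Gstm6 is at or under 0.176 CPM in the GFP day 7 group and at 27.2 CPM or more in Olig1 day 7, and Sod3 lies on the dotted line in all 3 GFP day 14 libraries.

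Sod1 (ENSMUSG00000022982, chr16:90220754-90226329, plus strand) was the member with the same separation at both days. The GFP libraries held 105, 11.6 and 85.0 CPM at day 7, and the Olig1 libraries 157, 312 and 227 CPM. At day 14 the GFP libraries held 67.1, 35.2 and 16.8 CPM, and the Olig1 libraries 86.1, 112 and 77.0 CPM. No Olig1 library fell below a GFP library of the same day. The Olig1 means were 232 CPM ± 77.4 at day 7 and 91.9 CPM ± 18.4 at day 14, against GFP means of 67.0 CPM ± 49.0 and 39.7 CPM ± 25.4 (SD, n = 3 each). The log2 difference of Olig1 minus GFP was 2.23 ± 0.75 at day 7 and 1.29 ± 0.73 at day 14 (unadjusted p = 0.0970, adjusted p = 0.622 at day 14). Groups that did not overlap, with Olig1 higher, were found for 7.78% of the genes tested at day 14, and for Sod1 and Sod3 among the members. Groups that did not overlap with Olig1 lower were found for 4.12% of all genes and for 0 members.

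Sod1 also fell short of the threshold between days. With Olig1 every day 14 library was below every day 7 library, by a log2 difference of -1.40 ± 0.73 (adjusted p = 0.474) that was -0.78 without Olig1 day 7 replicate 2, while with GFP the groups overlapped at -0.46 ± 0.72 (adjusted p = 0.966). The difference between the viruses in that change was -0.94 ± 1.02 (adjusted p = 0.838), and ran to -0.46 without GFP day 7 replicate 2, -0.47 without GFP day 14 replicate 1 and -0.199 without Olig1 day 7 replicate 2. The genes most like Sod1 over the 12 libraries were Nrxn2, a presynaptic adhesion protein (r = 0.939), Lrfn5, a synaptic adhesion protein (0.930), and Plxna2, a semaphorin receptor (0.910). The 4 libraries with the highest Sod1 were the 4 with the highest ganglion cell sums (1207 to 3087 CPM, against at most 252 CPM in the other 8), as the plot of Sod1 against marker sums shows. At day 7 the amacrine cell sum was also higher with Olig1 (1300 to 3173 CPM) than with GFP (285 to 651 CPM), and its marker Gad1 was at 126 to 1022 CPM against at most 0.761 CPM. The bipolar cell sum was lower with Olig1 (125 to 488 CPM) than with GFP (1136 to 1987 CPM), and so was the rod sum (600 to 1328 against 12581 to 58431 CPM). The part of these cell types in the level of Sod1 was not tested.

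**Figure D3:**
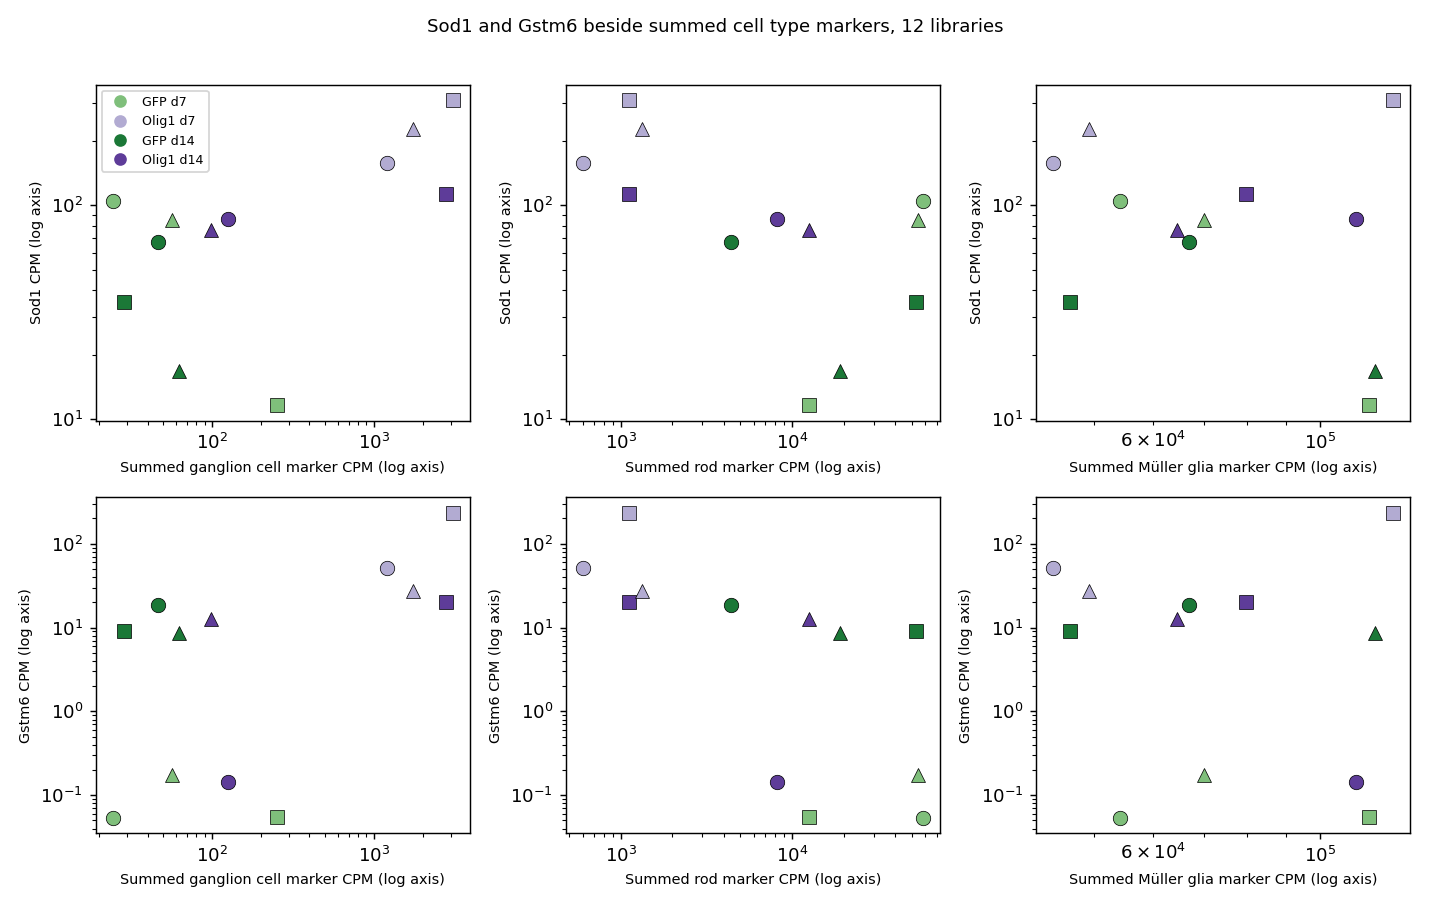
CPM of Sod1 (top row) and Gstm6 (bottom row) against the summed CPM of ganglion cell, rod and Müller glia markers in 12 libraries, all on log axes, with colours for the groups and circle, square and triangle for replicates 1, 2 and 3. The 3 Olig1 day 7 libraries lie between 1207 and 3087 CPM of ganglion cell markers and hold the 3 highest values of Sod1 and of Gstm6.

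Sod2 (ENSMUSG00000006818, chr17:13006846-13040063, plus strand) had no fitted difference between groups above 0.48 in size on the log2 scale. It was at 156, 160 and 68.9 CPM in GFP day 7, at 124, 43.7 and 154 CPM in Olig1 day 7, at 40.7, 269 and 124 CPM in GFP day 14 and at 128, 108 and 93.1 CPM in Olig1 day 14. All 4 comparisons of groups overlapped. The log2 difference of Olig1 minus GFP was -0.23 ± 0.66 at day 7 and -0.43 ± 0.66 at day 14 (adjusted p = 0.999 at day 14), and day 14 minus day 7 was 0.48 ± 0.66 with GFP (adjusted p = 0.950) and 0.27 ± 0.66 with Olig1 (adjusted p = 0.939). A change of the size of its standard error could not be seen with these libraries. Ireb2, an iron regulatory RNA-binding protein, was most like Sod2 (r = 0.878), followed by Ogfod2 (0.864) and Tmbim6 (0.863), which encodes an inhibitor of cell death in the endoplasmic reticulum.

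Sod3 (ENSMUSG00000072941, chr5:52363791-52371418, plus strand) was near or at 0 in most libraries and high in a few. It had 1, 3873 and 56 counts in GFP day 7 (0.0533, 212 and 3.28 CPM), and 5, 5 and 4 counts in Olig1 day 7 (0.272, 0.399 and 0.270 CPM). It had 0 counts in the 3 GFP day 14 libraries, of 77060913 counts in all, which allows up to 0.0389 CPM over that group. In Olig1 day 14 it had 184, 1115 and 26 counts (8.92, 45.4 and 1.38 CPM). All 3 Olig1 day 14 libraries were above all GFP day 14 libraries. From pooled counts, the Olig1 day 14 group was at least 532-fold above a floor of 3 counts over the GFP day 14 group. That bound covers counting error only and is not a bound for each library. Without Olig1 day 14 replicate 2 that bound was 137-fold, without replicate 3 it was 738-fold, and without a GFP day 14 library it was 341-fold to 367-fold. EdgeR gave an unadjusted p of 0.00174 and an adjusted p of 0.437, and DESeq2's Wald test an adjusted p of 2.04e-05.

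With GFP, the pooled level at day 14 was at least 1865-fold lower than at day 7. The adjusted p was 0.424 with edgeR and 1.81e-07 with DESeq2's Wald test. The bound rested on 1 library: without GFP day 7 replicate 2 it was 40.8-fold. GFP day 7 replicate 1 had 1 count (0.0533 CPM) and could not be told apart from the GFP day 14 libraries. A count of 0 in those libraries allowed up to 0.109 to 0.125 CPM. With Olig1, the level at day 14 was above that at day 7 in every library, with a log2 difference of 5.89 ± 2.27 (adjusted p = 0.377). The change between days went in opposite directions in the 2 viruses, and the test of that difference had an adjusted p of 0.341 with edgeR. Onecut3, a homeodomain transcription factor, was most like Sod3 over the 12 libraries (r = 0.958), before Acy3, an aminoacylase (0.952), and the gene model 4930532I03Rik (0.943). With 3 libraries at 0 and 4 more at 5 counts or fewer, such an r rests on a few libraries.

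**Figure D4:**
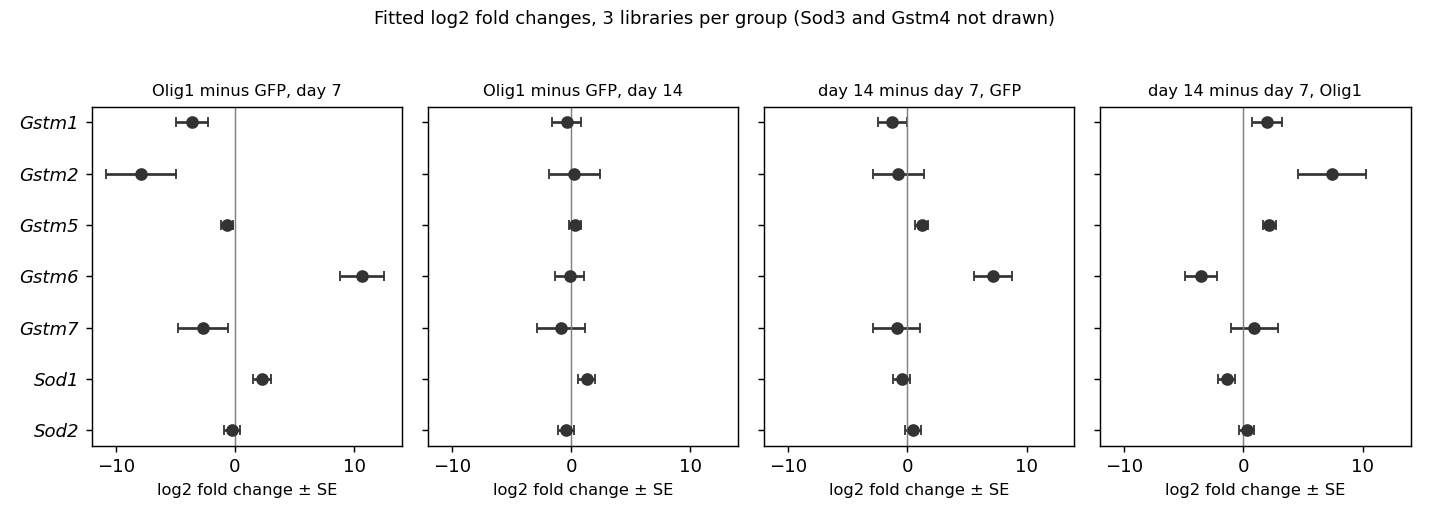
Fitted log2 fold changes with standard errors (bars) of 7 genes in 4 comparisons of 3 libraries against 3, with 0 marked by a line; Sod3, whose GFP day 14 libraries are at 0, and Gstm4, which was not tested, are left out. Gstm6 lies at 10.63 in the day 7 panel and at -0.11 in the day 14 panel, and the bars of Gstm2 and Gstm7 are wide throughout.

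The 8 tested members did not all move one way in any comparison. At day 7, 2 had a positive and 6 a negative log2 difference of Olig1 minus GFP, with a median of -1.65 beside -0.03 over all genes tested. At day 14, 4 were positive and 4 negative, with a median of 0.08 beside 0.09. Day 14 minus day 7 was positive for 3 and negative for 5 with GFP, with a median of -0.61 beside -0.14, and positive for 6 and negative for 2 with Olig1, with a median of 1.45 beside -0.01. The difference between the viruses in the change over days was positive for 5 and negative for 3, with a median of 1.40 beside 0.07.

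EdgeR called 0 members at day 14, beside 0.0400% of all genes, and 1 member (Sod3) had an unadjusted p under 0.05, which 10.4% of all genes had. The Wald test of DESeq2 called 1 member at day 14 (5.38% of all genes) and voom 0 (0.367%). Between days with GFP edgeR called 0 members, beside 0% of all genes, DESeq2 called 2 (4.77%) and voom 0 (0.113%), and 3 had an unadjusted p under 0.05 (10.3%). Between days with Olig1 edgeR called 0 members, beside 0.0334% of all genes, DESeq2 called 3 (4.53%) and voom 1 (2.09%), and 4 had an unadjusted p under 0.05 (11.8%). For the difference between the viruses over days edgeR called 0 members, beside 0% of all genes, DESeq2 called 2 (3.89%) and voom 0 (0%), and 3 had an unadjusted p under 0.05 (9.90%). All of these but the day 14 comparison use the day 7 libraries through which Gstm6 was chosen. With GFP, Gstm6 was higher at day 14 without overlap, where 3.96% of all genes were, and Sod3 was lower, where 10.5% were. For Sod3, GFP day 7 replicate 1 had 1 count, which cannot be told apart from 0 counts at day 14. With Olig1, Gstm1, Gstm2, Gstm5 and Sod3 were higher at day 14 without overlap, where 5.55% of all genes were, and Gstm6 and Sod1 were lower, where 10.6% were.

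One library, GFP day 7 replicate 2, held the highest level of the 12 for Gstm1, Gstm2, Gstm7 and Sod3 and the lowest for Sod1. Olig1 day 7 replicate 2 held the highest level of Gstm6 and Sod1 and the lowest of Gstm5. Erythrocyte markers summed to 2630 CPM in that library, and to 14.0 and 121 CPM in replicates 1 and 3 of that group. In GFP day 7 they summed to 23.1 to 96.0 CPM, and their part in these levels was not tested. How far the distance at day 7 rested on either library differed by gene. Without GFP day 7 replicate 2 the log2 difference was -3.08 for Gstm2 and -1.996 for Sod3, against -7.89 and -7.72 with it. Without Olig1 day 7 replicate 2 it was -8.07 for Gstm2 and -8.33 for Sod3. Leaving out the latter library took Sod1 from 2.23 to 1.49 and Gstm6 from 10.63 to 8.52.

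Which family member was the most abundant was compared per length of exon, as CPM per kilobase of the union of annotated exons. Gstm5 led the 6 transferases in 7 libraries, Gstm1 in 4 and Gstm6 in 1. The level per kilobase of Gstm5 was 247 CPM per kb ± 90.9 in GFP day 7, 150 ± 64.2 in Olig1 day 7, 486 ± 372 in GFP day 14 and 597 ± 158 in Olig1 day 14 (SD, n = 3 each). That of Gstm1 was 975 ± 1257, 80.1 ± 24.3, 299 ± 423 and 283 ± 198 CPM per kb in the same order, so that the order of Gstm1 and Gstm5 lay within the spread in the GFP groups. The ranges of Gstm1 and Gstm5 overlapped in the Olig1 groups as well. By library the ratio of Gstm1 to Gstm5 per kilobase was 0.487 to 0.674 in Olig1 day 7 and 0.206 to 1.06 in Olig1 day 14. Gstm1 took 40.7% to 85.9% of the summed level per kilobase of the 6 transferases in GFP day 7 and 21.0% to 31.3% in Olig1 day 7. Gstm6 took 47.5% in Olig1 day 7 replicate 2 and at most 0.0205% in GFP day 7. Gstm2 and Gstm7 took at most 3.31% and 3.71% in any library, and Gstm4 at most 0.352%.

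Among the dismutases, Sod1 led per kilobase of exon in 9 libraries, Sod2 in 2 (GFP day 14 replicates 2 and 3) and Sod3 in 1. Sod1 took 76.1% to 94.6% of the summed level per kilobase in Olig1 day 7 and 3.86% to 73.4% in GFP day 7. Sod3 took 75.0% in GFP day 7 replicate 2 and 23.7% at most in Olig1 day 14. With the length of the longest protein-coding transcript instead of the exon union, Sod1 led in 11 libraries, Sod2 in 0 and Sod3 in 1, and Gstm5 led in 8, Gstm1 in 3 and Gstm6 in 1. The shares moved as well: with that length Sod1 took 17.7% to 91.3% in GFP day 7 and 92.05% to 98.5% in Olig1 day 7. Sod3 then took 55.5% in GFP day 7 replicate 2. That length was chosen after seeing the data. The lead of Sod2 thus depended on the length used: the exon union of Sod1 has 3970 bases and its longest protein-coding transcript 641.

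**Figure D5:**
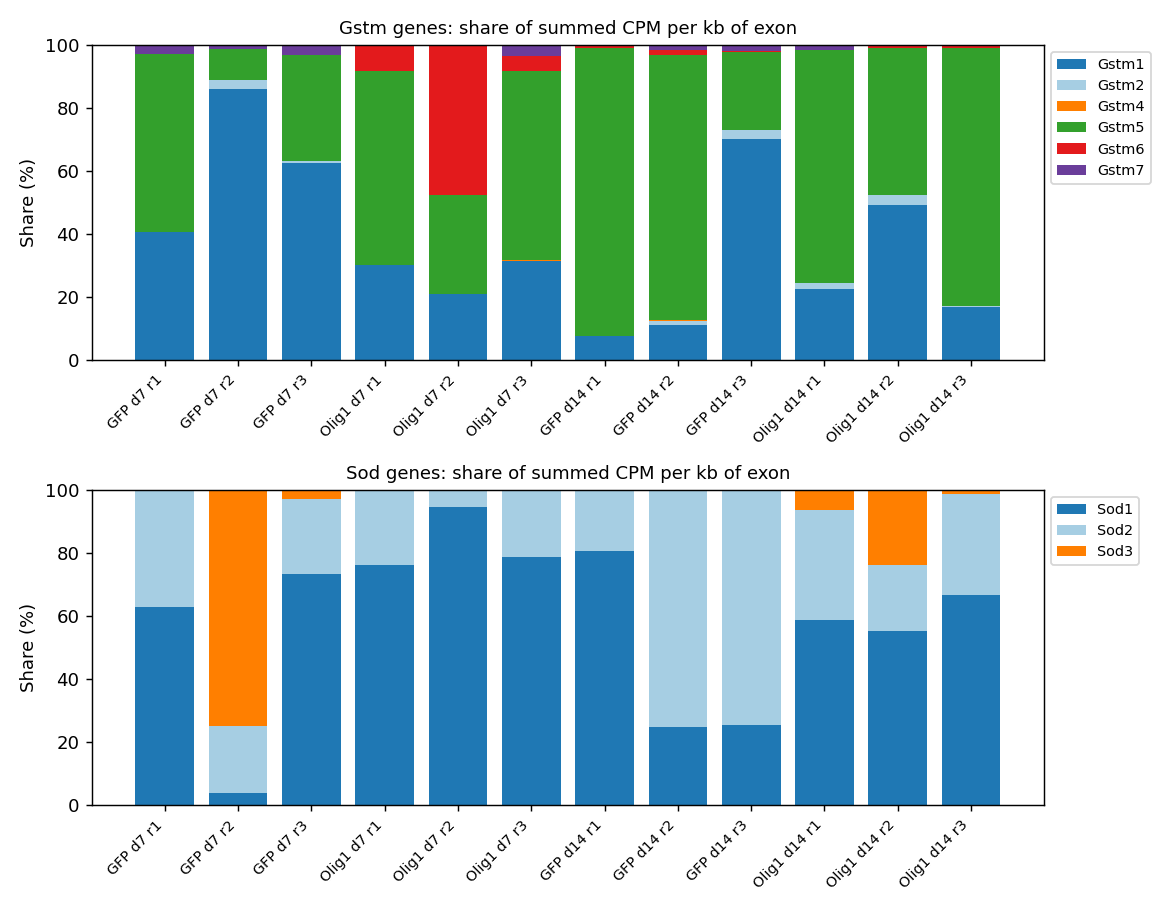
Share, in percent, of the summed CPM per kilobase of exon taken by each Gstm gene (top) and each Sod gene (bottom), with 1 stacked bar per library and 3 replicates (r1 to r3) per group. Gstm6 reaches 47.5% in Olig1 day 7 replicate 2, and Sod3 takes 75.0% in GFP day 7 replicate 2.

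The regions upstream of the start sites are shown for Gstm1 and Gstm6, members of 1 cluster that differed in opposite directions at day 7, and for Sod1, which was higher with Olig1 at both days. RefSeq (GRCm38.p6) gave an annotated start for 8 of the 9 members, and of the 3 starts of Gstm6 and the 2 of Gstm1 that nearest to the GENCODE start is shown. Each sequence is the 250 bases before the start, 5′ to 3′ on the strand of the gene, with matches to CANNTG (the E-box letters bound by basic helix-loop-helix factors) or TGACNNNGC (the core of the antioxidant response element bound by NRF2) on either strand in capitals. Gstm1 is at chr3:108017974-108018223 on the minus strand, Gstm6 at chr3:107943735-107943984 on the minus strand and Sod1 at chr16:90220512-90220761 on the plus strand.
Gstm1: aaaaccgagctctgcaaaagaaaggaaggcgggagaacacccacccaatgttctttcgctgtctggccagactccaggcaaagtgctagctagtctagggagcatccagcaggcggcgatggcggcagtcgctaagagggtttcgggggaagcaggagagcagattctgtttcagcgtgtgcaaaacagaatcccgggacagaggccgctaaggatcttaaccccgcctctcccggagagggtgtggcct
Gstm6: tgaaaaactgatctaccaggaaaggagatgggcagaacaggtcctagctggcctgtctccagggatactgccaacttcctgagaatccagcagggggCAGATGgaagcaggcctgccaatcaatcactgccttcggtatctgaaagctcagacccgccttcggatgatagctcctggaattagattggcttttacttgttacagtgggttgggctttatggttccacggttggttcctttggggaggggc
Sod1: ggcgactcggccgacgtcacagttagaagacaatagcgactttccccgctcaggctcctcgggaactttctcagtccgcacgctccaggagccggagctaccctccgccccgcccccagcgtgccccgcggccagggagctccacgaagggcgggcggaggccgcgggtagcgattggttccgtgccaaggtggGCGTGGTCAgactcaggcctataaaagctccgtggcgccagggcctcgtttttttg
The shown window of Gstm6 held 1 E-box match, 153 bases before the start, and those of Gstm1 and Sod1 held 0, while 66.2% of 32851 RefSeq promoters held at least 1. Of the other Gstm6 starts, 1 had a match 72 bases before it and 1 had 0. Among the members not shown, Gstm2 and Gstm5 had 2 matches each, Gstm4 had 1 at either start, Gstm7 had 1 or 0 by start, and Sod2 had 0. TGACNNNGC matched once in Sod1, 56 bases before the start, once in Gstm5, 42 bases before it, and once at another start of Gstm7, 129 bases before it, where 10.2% of all promoters held a match. CATATG, 1 form of CANNTG, was in none of the 8 members' windows and in 3.46% of all promoters. These shares are over windows from 250 bases before to 50 bases after a start, and a match is a description of the letters only.

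The other genes of glutathione, peroxide and superoxide handling were counted from a list of 108 genes in 7 roles, of which 91 were tested. EdgeR called 0 of them in each of the 5 comparisons. Unadjusted p under 0.05 were found for 18 at day 7 (13.9% of all genes), 10 at day 14 (10.4%), 12 between days with GFP (10.3%), 12 between days with Olig1 (11.8%) and 11 for the difference between viruses over days (9.90%). DESeq2's Wald test called 6 (7.17% of all genes), 4 (5.38%), 4 (4.77%), 4 (4.53%) and 5 (3.89%) of them in that order. Voom called 2 (2.87%), 0 (0.367%), 0 (0.113%), 5 (2.09%) and 0 (0%). At day 7, 48 had a positive and 42 a negative log2 difference of Olig1 minus GFP, with a median of 0.16 beside -0.03 over all genes.

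Within each role the gene with the smallest p was taken. Among peroxide-removal genes this was Srxn1 at day 7, the sulfiredoxin that repairs over-oxidised peroxiredoxins. The GFP libraries held 0.426, 1.48 and 7.72 CPM and the Olig1 libraries 254, 122 and 99.7 CPM, with no overlap. The log2 difference was 5.84 ± 1.24 with an adjusted p of 0.0766. The day 14 means were 24.8 CPM ± 12.3 for GFP and 21.9 CPM ± 26.3 for Olig1 (SD, n = 3 each), a log2 difference of -0.09 ± 1.01 (adjusted p = 1). Of its 4 group means, that of GFP day 7 was the lowest, at 3.21 CPM ± 3.95.

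For the other roles at day 7 the smallest p belonged to Mgst1, a membrane-bound glutathione transferase (log2 difference -3.17 ± 1.23, adjusted p = 0.285), to Ccs, the copper chaperone that loads Sod1 (-1.99 ± 0.86, adjusted p = 0.323), to Esd, an S-formylglutathione hydrolase (2.50 ± 0.96, adjusted p = 0.282), and to the metallothionein Mt1 (1.29 ± 0.63, adjusted p = 0.379). Ccs had 103, 96.1 and 13.8 CPM in the GFP libraries, against 33.4, 7.98 and 10.3 CPM in the Olig1 libraries, and its day 14 means were 41.6 CPM ± 19.4 and 40.7 CPM ± 9.53 (SD, n = 3 each). Hmox1, haem oxygenase and a target of NRF2, had 0 counts in GFP day 7 and 0, 103 and 5.41 CPM in Olig1 day 7 (adjusted p = 0.205). Cybb, a subunit of the phagocyte NADPH oxidase, had 0 counts in GFP day 7 and 11.8 CPM in 1 Olig1 day 7 library, replicate 3 (adjusted p = 0.345). Microglia and macrophage markers summed to 1480 CPM in that library and to 2768 CPM in GFP day 7 replicate 3. Their part in the level of Cybb was not tested.

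At day 14 the smallest p in each role belonged to Cbr3, Cyba, Gsta3, Chac1, Gpx1, Atox1 and Ftl1. Cyba, the partner of Cybb in the oxidase, had 52.0, 144 and 330 CPM in the GFP libraries, against 26.0, 9.12 and 53.0 CPM in the Olig1 libraries (log2 difference -2.80 ± 0.89, adjusted p = 0.438). Microglia and macrophage markers summed to 25.2 to 9281 CPM in GFP day 14 and to 3.50 to 8.46 CPM in Olig1 day 14, and their part in the level of Cyba was not tested. Cbr3, a carbonyl reductase, had 0 counts in GFP day 14 and 28.5, 0.611 and 14.9 CPM in Olig1 day 14 (adjusted p = 0.438). Gpx1, the cytosolic glutathione peroxidase, had a log2 difference of -1.19 ± 0.72 (adjusted p = 0.675), Atox1, a copper chaperone, 0.70 ± 0.63 (adjusted p = 0.906), and the ferritin light chain gene Ftl1 -0.57 ± 0.58 (adjusted p = 0.947). Gsta3, an alpha-class transferase, had 0 counts in Olig1 day 14 and 11.4, 0 and 0.167 CPM in GFP day 14 (adjusted p = 0.438). Chac1, which degrades glutathione, had 0 counts in GFP day 14 and 12.1, 0.326 and 0 CPM in Olig1 day 14 (adjusted p = 0.438).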

How the data were processed

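RNA from 12 pools of picked retinal cells was amplified over 20 PCR cycles (SMART-Seq HT), per the labels' protocols. The deposited values are raw counts of reads per Ensembl gene, which the authors made with FastQC, HISAT2 and HTSeq on mm10, per the submitters' processing notes. The sources used here give no versions, annotation or strand setting, and do not say which library was in which batch. The table of the whole series was used, because the single files of 4 libraries end early (270 to 2853 genes missing, 0 differing, 0 members missing). Libraries were grouped by virus and days after crush from the labels.

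The 4 groups were fitted together with edgeR 4.0.16 (quasi-likelihood, robust, TMM, filterByExpr by group, minimum count 10) under R 4.3.3. The filter left 14985 genes, over which p-values were adjusted (Benjamini-Hochberg, called at 0.05). The common biological coefficient of variation was 1.35. CPM are counts per 1000000 of the library total. Alternatives used DESeq2 1.42.0, limma 3.58.1 (voom), other filters and scalings, a replicate block and each library left out. The fit was tested on simulated counts. Likeness is Pearson's r of log2 CPM (prior count 2) with genes that passed the filter. Named genes are the 9 members, Gstm3, the 3 genes most like each tested member and, in each role of the antioxidant list, any called gene or else that with the smallest p of each virus comparison. Genes that share sequence with a member, and cell type markers, were named beside these. The members, lists and tests were chosen with earlier results of these data known. With DESeq2 size factors in place of TMM, the median log2 difference of all genes moved by -0.11 between days with GFP and by -0.18 with Olig1. Transcripts were GENCODE M21 (GRCm38), read with Biopython 1.88, and promoters RefSeq GRCm38.p6.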

Additional observations from a re-analysis of the deposited data

Results flagged for a closer look

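Gstm6 moved in opposite directions between day 7 and day 14 in the 2 viruses, with no overlap in either. The log2 difference of day 14 minus day 7 was 7.19 with GFP and -3.55 with Olig1, and the latter was -1.59 without Olig1 day 7 replicate 2. The test of the difference itself gave an adjusted p of 0.341 with edgeR, short of the threshold. It uses the day 7 libraries through which Gstm6 was chosen and is not independent of that choice.

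Sod3 also moved in opposite directions without overlap, though with GFP the gap to 1 library was within counting error. GFP day 7 replicate 1 had 1 count (0.0533 CPM), where 0 counts allowed up to 0.109 to 0.125 CPM in GFP day 14. From pooled counts, Sod3 was at least 1865-fold lower at day 14 than at day 7 with GFP (40.8-fold without GFP day 7 replicate 2). With Olig1 it was higher at day 14 by 5.89 on the log2 scale. The difference between the viruses had an adjusted p of 0.341 with edgeR and of 1.95e-08 with DESeq2's Wald test.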

How the results depend on the processing

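The coefficient of variation between libraries was 1.35, and Gstm2, Gstm7 and Sod3, which had libraries near 0 counts, had the widest errors. The number of members called was 0 in each tested comparison and stayed at 0 with DESeq2 size factors in edgeR, with the filter of at least 10 counts in at least 6 libraries, with only the compared groups in the fit and without any 1 library. DESeq2's Wald test called 1 member at day 14, 2 between days with GFP, 3 between days with Olig1 and 2 for the difference between viruses over days. Voom called 1 between days with Olig1. With no filter, 2, 1 and 2 members were called in the last 3 comparisons, in that order. For the antioxidant list, DESeq2 called 6 (day 7), 4 (day 14), 4 (GFP days), 4 (Olig1 days) and 5 (difference), voom 2 at day 7 and 5 between Olig1 days, and no filter 4 at day 7, 1 between Olig1 days and 2 for the difference. Leaving out 1 library gave 0 to 1 at day 7, with 1 without Olig1 day 7 replicate 3, GFP day 14 replicate 1 or Olig1 day 14 replicate 2. Over all settings the genes called in the whole table ran from 1 to 954 at day 7, 0 to 743 at day 14, 0 to 646 between GFP days, 0 to 626 between Olig1 days and 0 to 527 for the difference. The cause of these changes was not tested.

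Signs turned with voom for Sod2 at day 7 (0.0286), Gstm1 at day 14 (0.37), Gstm2 between GFP days (2.14) and Gstm7 between Olig1 days (-0.0319). Same-numbered GFP and Olig1 libraries of the same day did not deviate together (r from -0.051 to 0.044). Differently numbered libraries were not compared in this way, so whether the numbers mark a shared batch or animal cannot be told. With the replicate block 0 members were called, and the sign turned for Gstm7 at day 14 (0.57) and Gstm2 between GFP days (0.61).

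Without 1 library in turn, the log2 difference of Sod2 ran from -0.552 to 0.104 at day 7, -0.903 to 0.158 at day 14, -0.121 to 0.941 between GFP days, -0.0422 to 0.492 between Olig1 days and -0.677 to 0.385 for the difference. At day 14 it ran from -1.07 to 2.54 for Gstm1, -0.478 to 3.16 for Gstm2, -0.961 to 0.474 for Gstm6 and -5.80 to 1.23 for Gstm7. Between GFP days it ran from -4.17 to 0.972 for Gstm1 and -3.65 to 4.05 for Gstm2. For Gstm7 it ran from -4.04 to 3.17 between Olig1 days and -3.14 to 4.07 for the difference.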
